A study of Mus musculus with 9 samples.

Results

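The enzymes of prostaglandin synthesis were followed across fat cells given conjugated linoleic acid, phenformin or linoleic acid. The family was listed as 10 genes, and a gene was followed where a probe set of the array was annotated to it alone. That held for 8 of the 10 genes, with 12 probe sets, out of 18193 genes and 45037 probe sets tested in all. The followed genes were Pla2g4a, Ptgs2, Ptges, Ptges2, Ptgis, Ptgds, Hpgds and Tbxas1. The 2 probe sets of Ptges3 are also annotated to its pseudogene, so no level is given for that gene, and Ptgs1 was not analysed here.

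Prostaglandins are lipid signals made on demand from arachidonic acid. A phospholipase frees the fatty acid from membranes, a cyclooxygenase turns it into the unstable prostaglandin H2, and a terminal synthase then makes the final product: prostaglandin E2, prostacyclin, prostaglandin D2 or thromboxane. In fat tissue prostaglandin E2 is known to restrain lipolysis and the D2 and J2 series to act on adipocyte differentiation.

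RNA came from 3T3-L1 cells, a mouse preadipocyte line that becomes fat cells in culture, and the labels call the samples adipocytes. CLA cells had received conjugated linoleic acid, phenformin cells had received phenformin, a biguanide that inhibits mitochondrial respiration, and LA cells, the control, had received linoleic acid, an isomer of CLA whose double bonds are not conjugated. There were 3 biological replicates per group, each on its own Affymetrix array, which makes 9 arrays. The labels used here name no dose, time or CLA isomer, so the treatments are not known to be matched. No untreated group was among the 9 arrays, so a rise against LA and a lowering by LA itself cannot be told apart.

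Levels are log2 values per probe set, on which a difference of 1 is a doubling. Where a gene has several probe sets, the brightest over all arrays stands for it. "Rose" and "fell" are used for differences called by limma at an adjusted p under 0.05, with adjustment over all 45037 probe sets, and errors of differences are standard errors. A level is called not above background where every array of a group had it at or under a level set by control transcripts absent from mouse RNA, which lay between 3.68 and 4.20 on the 9 arrays.

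All 6 adipocyte markers with a value were above background, and the log2 of their summed signal was 16.26 to 16.40 in CLA, 16.24 to 16.37 in phenformin and 15.49 to 16.43 in LA. Of these 6, Cidec rose by 0.98 in CLA and by 0.77 in phenformin (limma adjusted p = 0.00227 and 0.0094). The others were not called in any comparison, and Lipe among them was at -0.44 in CLA and -0.34 in phenformin against LA. The sum over 5 preadipocyte or fibroblast markers was 12.71 to 13.07 in CLA, 12.42 to 12.89 in phenformin and 10.29 to 11.32 in LA. Of these 5 markers 4 rose in CLA and 3 in phenformin, against 12.6% and 13.7% of all genes. Cd34 was not above background in any group. The sum over 8 macrophage markers was 9.27 to 9.73 in CLA, 8.53 to 8.70 in phenformin and 8.89 to 9.17 in LA, with Itgam, Ptprc and Mrc1 not above background in any group. Cd14 was the brightest of the 8, at 8.91 in CLA, 7.47 in phenformin and 8.19 in LA, and was called higher in CLA and lower in phenformin than in LA. Adgre1 was called lower in phenformin than in LA (limma adjusted p = 0.0498), but all 3 phenformin arrays and 2 of the 3 LA arrays had it at or under background. The other 6 were not called in any comparison. The sum over 6 mast cell markers spanned 7.01 to 7.24 in CLA, 6.95 to 7.01 in phenformin and 7.02 to 7.10 in LA, and that over 5 endothelial markers 6.47 to 6.85 in CLA, 6.46 to 6.72 in phenformin and 6.58 to 6.68 in LA. Fcer1a, Tek and Vwf from these lists were not above background in any group. For beta-actin the 3′ probe set exceeded the 5′ one, a sign of RNA or target shortening, by 0.53 ± 0.10 in CLA, 0.56 ± 0.09 in phenformin and 1.28 ± 0.39 in LA (SD, n = 3 each). The same gap for Gapdh was 0.02 ± 0.08 in CLA, -0.03 ± 0.02 in phenformin and 0.17 ± 0.07 in LA. LA replicate 3 had the narrowest range of values, with a 99th percentile of 11.63 against 12.20 to 12.48 elsewhere. The spiked hybridization controls averaged 11.07 to 12.71 per array in CLA, 10.56 to 11.51 in phenformin and 9.77 to 10.17 in LA, so the LA arrays lay below all treated ones. The 3 genes that rose against LA (Pla2g4a, Ptgs2 and Ptges) were also called higher in both treated groups without any single LA array. The part of cell makeup, RNA shortening and hybridization in the results that follow was not tested. In RNA from a whole dish, fewer cells of a type and less RNA per cell cannot be told apart.

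The 3 genes that rose against LA in both treated groups were Pla2g4a, Ptgs2 and Ptges. The stretch around the start of each is shown for that reason. Pla2g4a and Ptgs2 neighbour each other on mouse chromosome 1 with no protein-coding gene between them in the RefSeq table, and their promoter windows lie on opposite strands. The sequences are RefSeq's, build GRCm38.p6, and run from 250 bases before to 50 bases after the annotated start, 5′ to 3′. Capitals mark matches, on either strand, to any of 7 motifs, which are the TATA box with the letters TATAAA, the cyclic AMP response element with TGACGT, the AP-1 motif with TGANTCA, the C/EBP motif with TTGCNNAA, the E-box with CACGTG, the NF-kB motif with GGGNNTTCC and the Sp1 motif with GGGCGG.
Ptgs2, chr1:150099781-150100080, plus strand: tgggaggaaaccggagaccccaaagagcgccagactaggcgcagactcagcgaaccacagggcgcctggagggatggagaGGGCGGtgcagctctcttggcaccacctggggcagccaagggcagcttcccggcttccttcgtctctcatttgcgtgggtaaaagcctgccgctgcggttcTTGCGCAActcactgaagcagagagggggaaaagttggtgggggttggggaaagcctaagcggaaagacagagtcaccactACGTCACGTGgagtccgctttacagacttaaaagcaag
Pla2g4a, chr1:149961241-149961540, minus strand, the upstream of its 2 windows: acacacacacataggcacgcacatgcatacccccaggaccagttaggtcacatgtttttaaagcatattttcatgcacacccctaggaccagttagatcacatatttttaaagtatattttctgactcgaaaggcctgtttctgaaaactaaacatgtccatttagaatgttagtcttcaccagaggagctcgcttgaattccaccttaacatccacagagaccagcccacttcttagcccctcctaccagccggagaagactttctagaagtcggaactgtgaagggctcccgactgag
Ptges, chr2:30903248-30903547, minus strand: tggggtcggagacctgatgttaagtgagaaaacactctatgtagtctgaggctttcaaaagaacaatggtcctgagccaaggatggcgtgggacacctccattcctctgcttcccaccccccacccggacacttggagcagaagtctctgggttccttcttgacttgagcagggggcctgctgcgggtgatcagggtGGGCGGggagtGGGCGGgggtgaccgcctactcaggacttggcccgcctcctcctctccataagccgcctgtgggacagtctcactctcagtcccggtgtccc

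The Ptgs2 window held 4 of the 7 motifs. An Sp1 match began 170 bases before the annotated start and a C/EBP match 69 bases before it. A cyclic AMP response element began 12 bases after that start and an E-box 16 bases after it, overlapping by 2 bases. Positions hold for the annotated start only, and the start used in these cells was not measured. The Ptges window held 2 Sp1 matches, which began 53 and 42 bases before the start. The upstream Pla2g4a window held none of the 7, which says only that these letters are not in it. Over all 32851 windows of the table, Sp1 letters were found in 35.7%, the C/EBP letters in 10.8%, the cyclic AMP response element in 7.51% and the E-box in 7.15%. The TATA box was in 13.6% of windows, AP-1 in 7.81% and NF-kB in 5.82%, and none of these 3 matched in the stretches printed. Windows were found for 7 of the 8 genes.

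CLA was set against LA to compare the conjugated fatty acid with its isomer. Pla2g4a, Ptgs2 and Ptges, which act in turn to free arachidonic acid, oxidise it and make prostaglandin E2, all rose, and for the other 5 genes the differences did not pass the test. Of 8 genes 3 were called higher by limma, against 12.6% of all genes, and 0 lower, against 7.58% of all genes. At an unadjusted limma p under 0.05 0 of the 8 were lower, against 2340 of all 18193 genes. The median log2 fold change was 0.25 over the 8 genes and 0.05 over all genes. Quantile normalization of the deposited values was the alternative that also called Ptgis lower.

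Phenformin, a drug that lowers cellular energy and activates AMP-activated protein kinase, was compared with LA. The labels name no fatty acid for the phenformin group, so by them the groups differ in both drug and fatty acid. The same 3 genes rose, and Ptgds, a prostaglandin D synthase, fell. That is 3 of 8 genes higher, against 13.7% of all genes, and 1 of 8 lower, against 5.11%. The median log2 fold change was 0.16 over the 8 genes and 0.01 over all genes. The comparisons of CLA and of phenformin with LA share the 3 LA arrays.

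Phenformin was also compared with CLA directly. Ptgs2 was lower in phenformin, while Pla2g4a and the brightest probe set of Ptges did not pass the test, though the other 2 probe sets of Ptges did. By limma 1 of 8 genes was called lower, against 2.35% of all genes, and 0 higher, against 3.95%. At an unadjusted limma p under 0.05 0 of the 8 were higher, against 2252 of all 18193 genes. The median log2 fold change was -0.11 over the 8 genes and -0.03 over all genes.

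**Figure D1:**
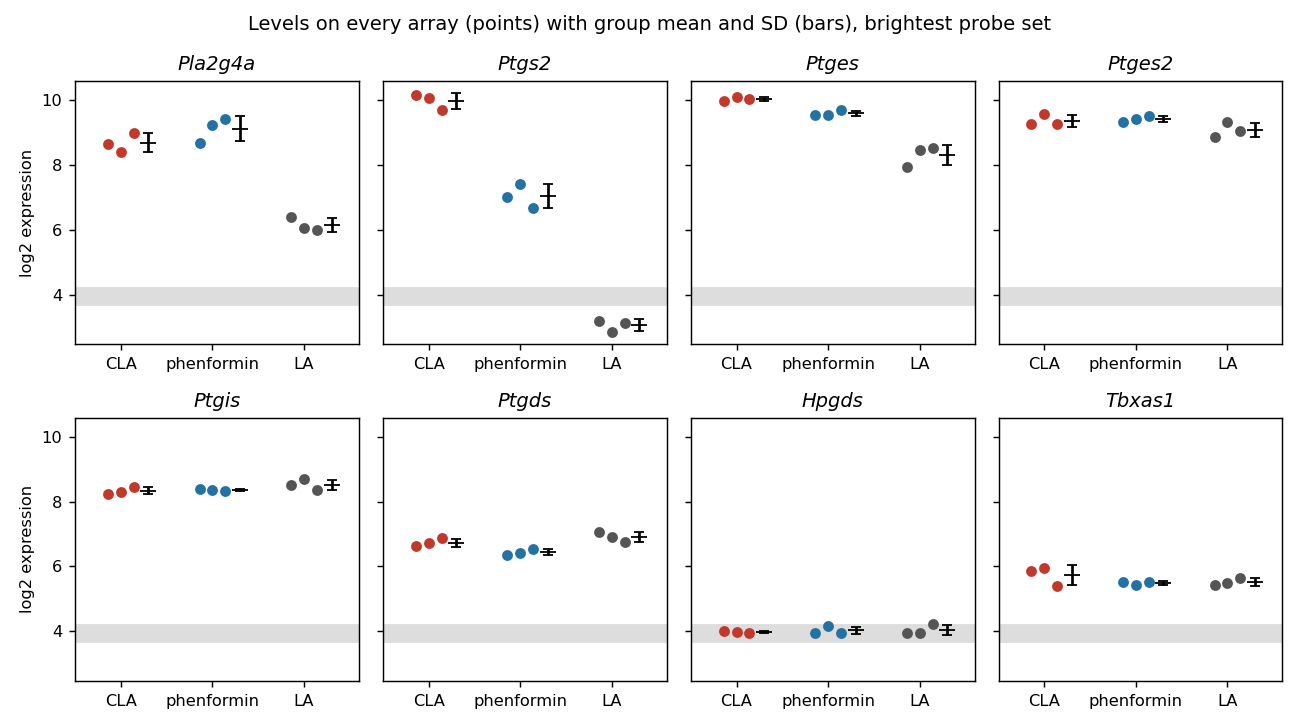
Log2 expression (vertical axis) of the 8 measured genes on each of the 9 arrays, by group; points are arrays, the bars beside them are mean and SD (n = 3), and the grey band spans the background levels of the arrays, 3.68 to 4.20. Each gene is drawn by its brightest probe set. By these probe sets Pla2g4a, Ptgs2 and Ptges are higher on every CLA and phenformin array than on any LA array. The Ptgs2 probe set drawn lies under the band in LA.

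Release of arachidonic acid starts with Pla2g4a, the cytosolic phospholipase A2 that is activated by calcium and phosphorylation. It lay at 8.66, 8.41 and 8.98 in CLA and at 8.68, 9.24 and 9.41 in phenformin, against 6.40, 6.04 and 5.99 in LA. Every treated array was above every LA array, and the CLA and phenformin arrays overlapped. The gene rose in CLA by 2.54 ± 0.21, a 5.82-fold difference (limma adjusted p = 3.02e-05). In phenformin it rose by 2.97 ± 0.21, or 7.83-fold (limma adjusted p = 1.87e-05). Phenformin minus CLA was 0.43 ± 0.21 with a 95% interval of -0.04 to 0.90 and was not called (limma adjusted p = 0.355). The 3 arrays per group do not settle where in that interval the difference lies.

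Ptgs2 encodes cyclooxygenase-2, the inducible form of the enzyme that commits arachidonic acid to prostaglandins. Its brightest probe set read 10.15, 10.08 and 9.70 in CLA, 7.01, 7.41 and 6.68 in phenformin, and 3.19, 2.84 and 3.13 in LA. The 3 groups did not overlap, and in LA this probe set was not above background. Its fold against LA is therefore a bound for this probe set, the treated mean set against the background level of the LA arrays. By it Ptgs2 was at least 64.5-fold higher in CLA than in LA and at least 8.38-fold higher in phenformin than in LA (limma adjusted p = 8.32e-08 and 2.54e-06). The measured means were 9.98 ± 0.24 in CLA, 7.03 ± 0.37 in phenformin and 3.05 ± 0.19 in LA (SD, n = 3 each). Between the treated groups, both above background, Ptgs2 was 7.70-fold lower in phenformin than in CLA, a log2 difference of -2.95 ± 0.20 (limma adjusted p = 4.95e-05).

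The other Ptgs2 probe set gave the same order with smaller steps. It read 7.60, 8.07 and 7.95 in CLA, 4.88, 5.55 and 5.68 in phenformin, and 3.81, 3.98 and 4.33 in LA. Here too no 2 groups overlapped. No LA array was at or under its background level, but all lay close to it, at levels of 3.80, 3.90 and 4.20. The folds over LA therefore start from near background by this probe set too. Ptgs2 by this probe set rose by 3.83 ± 0.22 in CLA and by 1.33 ± 0.22 in phenformin, and was lower by a log2 difference of -2.50 ± 0.22 in phenformin than in CLA (limma adjusted p = 3.14e-06, 0.00246 and 0.000252). As folds over LA these rises were 14.3-fold in CLA and 2.52-fold in phenformin, below the bounds from the brightest probe set, so the size of the rise depends on the probe set. The distance between phenformin and CLA was 7.70-fold by the brightest and 5.67-fold by the other.

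Ptges, the microsomal prostaglandin E synthase that works downstream of cyclooxygenase-2, was read by 3 probe sets. The brightest was at 9.96, 10.10 and 10.03 in CLA and at 9.55, 9.53 and 9.68 in phenformin, against 7.94, 8.45 and 8.51 in LA. None of the groups overlapped. Ptges rose by 1.73 ± 0.15 in CLA, or 3.32-fold, and by 1.29 ± 0.15 in phenformin, or 2.44-fold (limma adjusted p = 4.32e-05 and 0.000334). Phenformin minus CLA was -0.44 ± 0.15, with a 95% interval of -0.78 to -0.10, and was not called (limma adjusted p = 0.158).

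The other Ptges probe sets placed phenformin nearer to LA. The dimmest read 8.02, 8.11 and 8.30 in CLA, 7.19, 7.23 and 7.32 in phenformin, and 6.69, 6.65 and 6.71 in LA. For Ptges it gave a rise of 1.46 ± 0.11 in CLA and of 0.56 ± 0.11 in phenformin, and a fall of phenformin against CLA, at -0.90 ± 0.11 (limma adjusted p = 1.76e-05, 0.00626 and 0.00178). The third read 8.37, 8.76 and 8.78 in CLA, 7.67, 7.63 and 7.47 in phenformin, and 7.21, 7.35 and 7.66 in LA, where phenformin and LA overlapped. By it Ptges rose by 1.23 ± 0.15 in CLA, was not called between phenformin and LA at 0.18 ± 0.15, and was lower in phenformin than in CLA at -1.05 ± 0.15 (limma adjusted p = 0.000421, 0.497 and 0.0045). All 3 probe sets called Ptges higher in CLA than in LA, 2 of the 3 called it higher in phenformin than in LA, and 2 of the 3 called it lower in phenformin than in CLA. The mean of the 3 probe sets was also called lower in phenformin than in CLA, at -0.79 (limma adjusted p = 0.00193). Against LA that mean gave a smaller rise in phenformin, 0.68, than the brightest probe set alone.

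**Figure D2:**
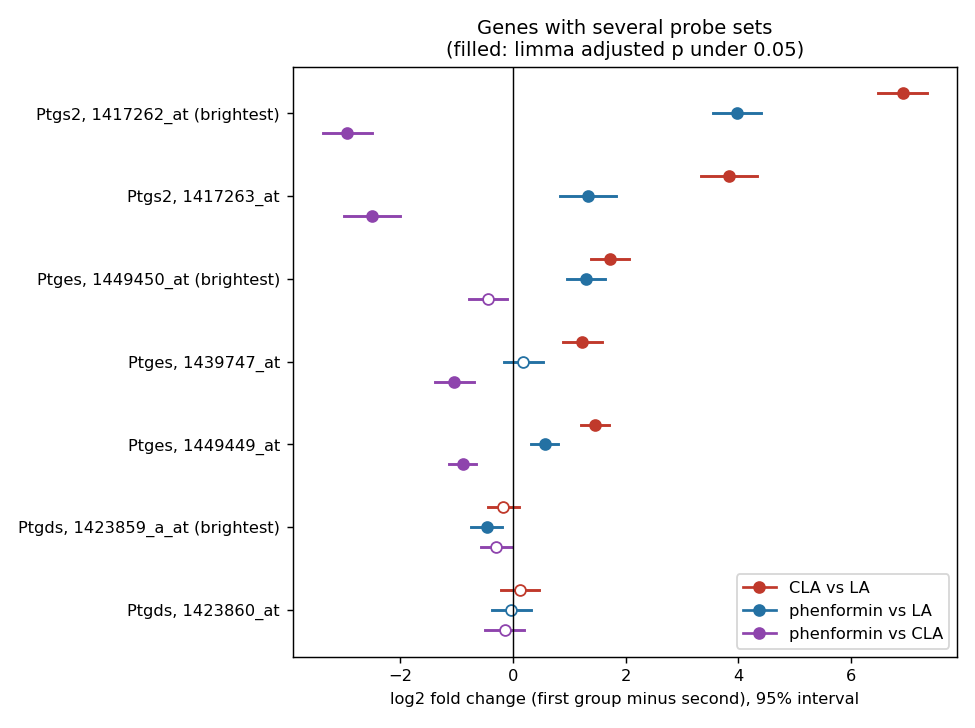
Log2 fold change with its 95% interval (horizontal axis, first group minus second) for each probe set of Ptgs2, Ptges and Ptgds in the 3 comparisons; filled points passed limma at an adjusted p under 0.05. Points against LA of the brightest Ptgs2 probe set are drawn as measured, from a level not above background, and its step between phenformin and CLA is -2.95, against -2.50 for the other probe set. The Ptges probe sets differ on phenformin against LA (0.18 to 1.29).

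Ptges2 encodes a membrane-associated prostaglandin E synthase that is made in many tissues without induction. It averaged 9.36 ± 0.18 in CLA, 9.41 ± 0.08 in phenformin and 9.08 ± 0.23 in LA (SD, n = 3 each). The phenformin arrays, at 9.33, 9.40 and 9.50, lay just above the LA arrays, at 8.86, 9.32 and 9.05, while the CLA arrays overlapped with both. No comparison passed: 0.28 ± 0.14 for CLA minus LA, 0.33 ± 0.14 for phenformin minus LA and 0.05 ± 0.14 for phenformin minus CLA (limma adjusted p = 0.237, 0.155 and 0.896). The 95% interval of its difference of CLA from LA, -0.04 to 0.60, lies below that of Ptges, 1.39 to 2.07, but the genes' changes were not tested against each other.

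Ptgis makes prostacyclin, a short-lived relaxant of vessels that also acts on fat cell precursors. Its levels were 8.25, 8.30 and 8.45 in CLA and 8.38, 8.37 and 8.33 in phenformin, against 8.50, 8.68 and 8.37 in LA. The groups overlapped in every comparison, and the Ptgis differences were -0.19 ± 0.12 for CLA minus LA, -0.16 ± 0.12 for phenformin minus LA and 0.03 ± 0.12 for phenformin minus CLA (limma adjusted p = 0.337, 0.429 and 0.938). After quantile normalization of the deposited values Ptgis was called lower than in LA, at -0.32 in CLA and -0.38 in phenformin (limma adjusted p = 0.0372 and 0.0194).

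Prostaglandin D2 can be made by either of the 2 D synthases. Ptgds encodes the lipocalin-type synthase, which is secreted and also carries lipids. Its brightest probe set was at 6.62, 6.72 and 6.87 in CLA and at 6.35, 6.43 and 6.54 in phenformin, against 7.07, 6.91 and 6.75 in LA. Every phenformin array was below every LA and CLA array, and CLA overlapped with LA. Ptgds fell by 0.47 ± 0.12 on the log2 scale in phenformin against LA, a 1.39-fold difference (limma adjusted p = 0.0258). The differences of CLA from LA, -0.17 ± 0.12, and of phenformin from CLA, -0.30 ± 0.12, were not called (limma adjusted p = 0.405 and 0.254). The call for Ptgds was lost without LA replicate 1 (limma adjusted p = 0.0962), without LA replicate 2 (0.0649), without phenformin replicate 1 (0.0994), without phenformin replicate 2 (0.0811) and with the mean of both probe sets (-0.25, 0.15). The other Ptgds probe set, at 4.22 to 4.83 over the 9 arrays, gave -0.03 ± 0.15 for phenformin minus LA (limma adjusted p = 0.933).

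Hpgds, the hematopoietic-type D synthase best known from mast cells and other blood cells, lay close to background on all arrays, at 3.94 to 4.23. It averaged 3.98 ± 0.02 in CLA, 4.02 ± 0.11 in phenformin and 4.04 ± 0.16 in LA (SD, n = 3 each), and 1 of the 9 arrays, in phenformin, had it at or under the background level. No Hpgds difference was called, with limma adjusted p between 0.774 and 0.938, and its direction changed between alternatives. Near background a change could pass unseen.

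Tbxas1, the thromboxane A synthase of platelets and macrophages, was at 5.85, 5.96 and 5.40 in CLA, 5.53, 5.43 and 5.53 in phenformin, and 5.42, 5.50 and 5.66 in LA. The groups overlapped. Its differences were 0.21 ± 0.15 for CLA minus LA, -0.02 ± 0.15 for phenformin minus LA and -0.24 ± 0.15 for phenformin minus CLA (limma adjusted p = 0.401, 0.946 and 0.484).

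**Figure D3:**
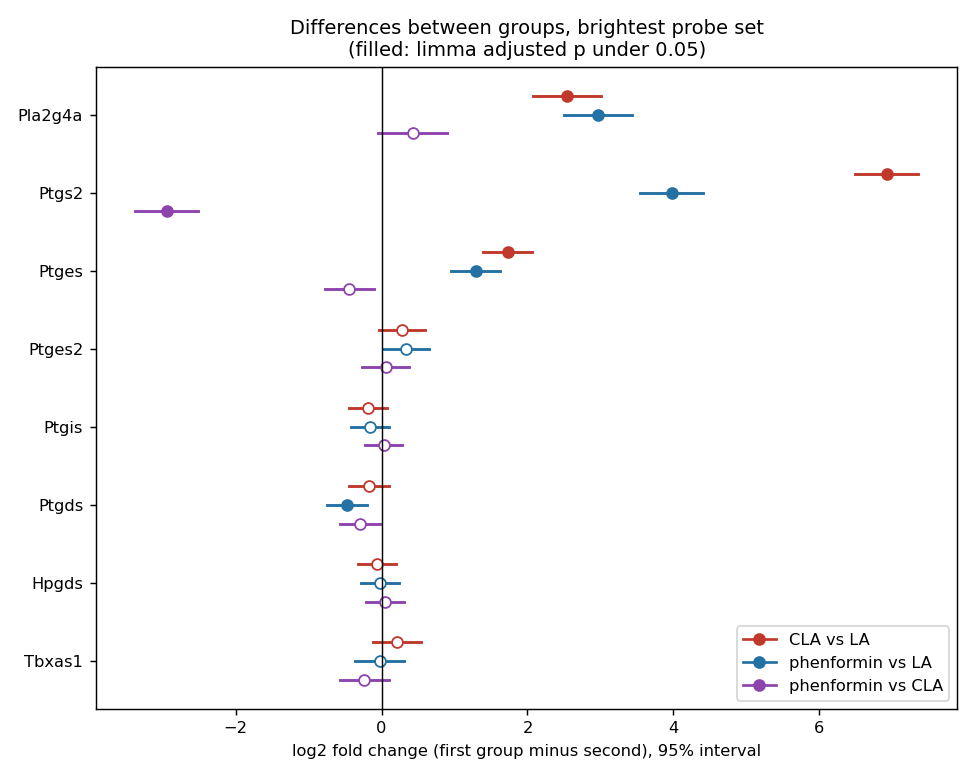
Log2 fold change with its 95% interval (horizontal axis, first group minus second) of the 8 genes by their brightest probe set in the 3 comparisons; filled points passed limma at an adjusted p under 0.05. Ptgs2 is the gene called in all 3 comparisons, with its points against LA drawn as measured from a level not above background (at least 64.5-fold in CLA and 8.38-fold in phenformin) and -2.95 between phenformin and CLA. Pla2g4a is called against LA in both treated groups (2.54 and 2.97) but not between them (0.43).

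For Ptgs2 the order of the groups was CLA, then phenformin, then LA, with every neighbouring step called by both probe sets. For Pla2g4a phenformin had the highest mean, but phenformin and CLA did not differ beyond the spread of the arrays. For Ptges the order was CLA, phenformin, LA by mean in all 3 probe sets, with the step from CLA to phenformin called in 2 of them.

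The genes whose pattern over the 9 arrays was nearest to that of Ptgs2 were sought among 18185 other genes, by the root mean square difference between centred log2 values, in which 0 would be an identical pattern. The nearest was Mmp13, a collagenase, at 0.85 log2 units, with log2 fold changes of 5.39 in CLA against LA, 4.30 in phenformin against LA and -1.09 in phenformin against CLA. The LA mean of Mmp13, 4.17, lay within the span of the background levels, so its changes against LA and its place are uncertain. Ccl2, a monocyte chemokine, followed at 1.03 with 4.46, 2.71 and -1.75 in the same comparisons. Ifi202b, an interferon-inducible gene, was next at 1.08 with 4.39, 2.66 and -1.72. Atf3, a stress-induced transcription factor, was at 1.10 and Ier3, an immediate early gene, at 1.17. Ier3, like Ptgs2, was much lower in phenformin than in CLA, at -2.54. The Ptgs2 probe set used here was not above background in LA, so these distances rest partly on a level that was not measured.

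Distances were smaller for Pla2g4a and Ptges. The measure is not scaled to the size of a gene's change, so distances cannot be compared between the 3 genes. Edil3, an integrin ligand of the matrix, came out at 0.24 log2 units from Pla2g4a, but its LA mean of 3.01 was under the background levels, so its place is uncertain. Alcam, a cell adhesion molecule, was at 0.30, with log2 fold changes of 2.67 in CLA and 3.17 in phenformin against LA, and Slc7a5, a transporter of large neutral amino acids, at 0.32. Plk2, a stress-inducible kinase, stood at 0.33 and Ppp1r15a, a phosphatase subunit of the integrated stress response, at 0.34. For Ptges the nearest were Slc6a9, a glycine transporter, at 0.12, Acot7, an acyl-CoA thioesterase, at 0.13, and Cnn2, an actin-binding calponin, at 0.15. Axl, a receptor tyrosine kinase, and Lcn2, an acute-phase lipocalin, also stood at 0.15. Lcn2 had log2 fold changes of 1.94 in CLA and 1.57 in phenformin against LA.

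The rest of the prostanoid pathway was described from a list of 43 genes, of which 39 had a value. In CLA against LA 8 of the 39 rose and 5 fell, against the 12.6% and 7.58% of all genes, and the median log2 fold change was 0.09. In phenformin against LA 9 rose and 1 fell, against 13.7% and 5.11%, with a median of -0.11. Over the 39 genes the falls in phenformin numbered 3 without LA replicate 1 and 3 without LA replicate 3. In phenformin against CLA 2 rose, against 3.95%, and 0 fell by limma, against 2.35%, with a median of -0.12. With array weights 1, Tbxa2r, was called lower. At an unadjusted limma p under 0.05 4 of the 39 were lower, against 1502 of all 18193 genes.

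Among 15 phospholipases and genes of fatty acid handling, 4 rose and 2 fell in CLA, against 12.6% and 7.58% of all genes. In phenformin 6 rose, against 13.7%, and 0 fell, against 5.11%. Acsl4, a ligase that activates arachidonic acid for storage in phospholipids, averaged 10.20 in CLA and 10.45 in phenformin, against 8.46 in LA. It rose by 1.74 ± 0.36 in CLA and by 1.99 ± 0.36 in phenformin (limma adjusted p = 0.00714 and 0.0036), and its lowest LA array was replicate 3, at 7.44 against 9.08 and 8.86. Pla2g2e, a secreted phospholipase A2, rose by 1.18 ± 0.18 in CLA and by 1.72 ± 0.18 in phenformin (limma adjusted p = 0.00131 and 0.000164). Pla2g7, which breaks down platelet-activating factor, rose by 1.17 ± 0.16 and 1.01 ± 0.16, and Plaa, the phospholipase A2 activating protein, by 0.997 ± 0.19 and 0.90 ± 0.19, in CLA and in phenformin (limma adjusted p = 0.000596 to 0.00788).

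Mgll, the monoacylglycerol lipase that in some tissues supplies arachidonic acid from endocannabinoids, had its lowest levels in CLA. It was at 6.94, 7.15 and 7.16 in CLA, 8.25, 7.88 and 8.10 in phenformin, and 8.08, 8.20 and 8.41 in LA. Mgll fell by 1.15 ± 0.14 on the log2 scale in CLA against LA, was higher by 0.99 ± 0.14 in phenformin than in CLA, and was not called between phenformin and LA at -0.15 ± 0.14 (limma adjusted p = 0.000324, 0.0033 and 0.527). Pla2g15, a lysosomal phospholipase A2, showed the same calls, with -0.81 ± 0.15 in CLA against LA and 0.70 ± 0.15 in phenformin against CLA (limma adjusted p = 0.00399 and 0.0253). The call for Pla2g15 in phenformin against CLA was lost without CLA replicate 1, without CLA replicate 2 and without any single phenformin replicate, which leaves Mgll as the 1 gene of the 39 called there, while without CLA replicate 3 the count was 4. With the mean of its probe sets Pla2g15 was not called lower in CLA and was called higher in phenformin against LA, unlike Mgll. Pla2g12a, a secreted phospholipase A2, and Lpcat3, which loads polyunsaturated fatty acids into phospholipids, rose in phenformin by 1.18 ± 0.19 and 0.69 ± 0.19 (limma adjusted p = 0.00178 and 0.0336). The call of Lpcat3 was lost without LA replicate 1, without LA replicate 3, without any single phenformin replicate, after quantile normalization and in a fit of 2 groups only.

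Of the 9 prostanoid receptors 2 rose in each treated group, against 12.6% of all genes in CLA and 13.7% in phenformin. The others were not called. Ptgir, the prostacyclin receptor, was at 6.44, 6.36 and 6.50 in CLA and at 5.57, 6.32 and 5.87 in phenformin, against 3.65, 4.19 and 4.21 in LA. Ptgir rose by 2.42 ± 0.20 in CLA and by 1.91 ± 0.20 in phenformin (limma adjusted p = 2.98e-05 and 0.000179). Ptger4, a prostaglandin E2 receptor that raises cyclic AMP, rose by 1.67 ± 0.20 in CLA and by 1.17 ± 0.20 in phenformin (limma adjusted p = 0.00034 and 0.00298). Both started near background, with 1 LA array of Ptgir and 2 of Ptger4 at or under it, and neither was called between phenformin and CLA. Ptger3, the receptor through which prostaglandin E2 restrains lipolysis, had its brightest probe set at a mean of 3.35 in CLA, 3.33 in phenformin and 3.54 in LA, not above background in any group.

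Of 5 genes of transport and breakdown 2 rose and 1 fell in CLA, against 12.6% and 7.58% of all genes. In phenformin 1 rose and 1 fell, against 13.7% and 5.11%. Abcc4, an exporter of prostaglandins and cyclic nucleotides, rose by 1.54 ± 0.27 in CLA and by 1.29 ± 0.27 in phenformin (limma adjusted p = 0.00324 and 0.00877). Ptgr2, which reduces 15-keto-prostaglandins, averaged 9.13 in CLA and 9.55 in phenformin, against 10.17 in LA. Ptgr2 fell by 1.04 ± 0.13 on the log2 scale in CLA and by 0.61 ± 0.13 in phenformin (limma adjusted p = 0.000456 and 0.0101), but the call in phenformin was lost with the mean of its 6 probe sets. Ptgr1, a prostaglandin reductase, rose by 0.60 ± 0.14 in CLA (limma adjusted p = 0.0163).

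Of 4 prostaglandin F synthases and reductases Prxl2b fell in CLA, at -0.67 ± 0.12 (limma adjusted p = 0.00381), and none was called in phenformin against LA. Of 6 genes of the lipoxygenase branch, which makes leukotrienes from the same arachidonic acid, Ltc4s, the leukotriene C4 synthase, fell in CLA at -0.74 ± 0.12 (limma adjusted p = 0.00169). Over all genes 7.58% were called lower in CLA than in LA. Alox5, the enzyme that starts that branch, was at 5.68 in CLA, 5.43 in phenformin and 5.58 in LA and was not called in any comparison.

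**Figure D4:**
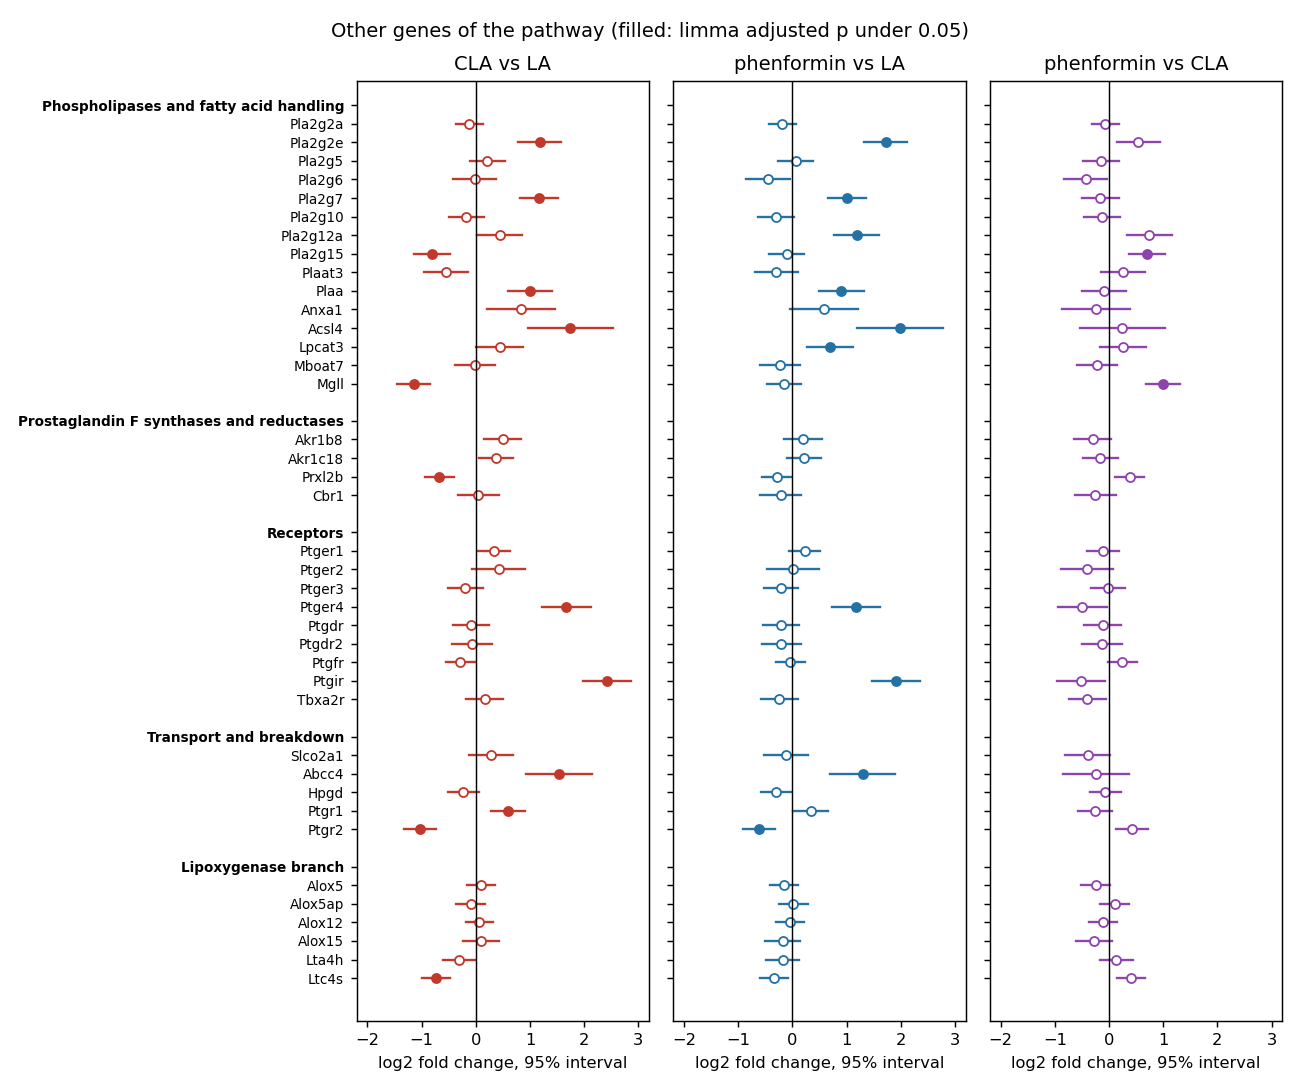
Log2 fold change with its 95% interval (horizontal axes, first group minus second) of 39 other genes of the pathway, grouped by role, in the 3 comparisons; filled points passed limma at an adjusted p under 0.05. Ptgir (2.42 in CLA, 1.91 in phenformin) and Acsl4 (1.74 and 1.99) stand out to the right against LA, and Mgll and Pla2g15 are filled in the comparison of phenformin with CLA.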

How the data were processed

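The deposited values were log2 expression values per probe set that the authors made with RMA (the submitters' processing notes name RMA, limma and R 2.9.0) from biotinylated cRNA on Affymetrix arrays, per the labels' protocols. Background correction therefore could not be varied. The authors also deposited limma tables with log2 fold changes, p-values and a score of each kind, namely log odds and moderated t, per the file headers; the largest difference of a log2 fold change from the fit used here was 4.6e-08.

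After 64 controls were left out, 45037 probe sets were fitted with limma 3.58.1 (lmFit and eBayes, R 4.3.3) over all 9 arrays, two-sided, with Benjamini-Hochberg adjustment and a threshold of 0.05. Of them 34945 had 1 gene symbol, 932 several and 9160 none here, which gave 18193 genes, and genes were named from single symbols. The background level was the 95th percentile of 27 probe sets of dap, lys, phe, thr and trpn. Bounds used the higher of that level and the probe set's own value on each array. An exact permutation test of 3 against 3 cannot give a two-sided p below 0.1. The fit was tested on simulated data. The number of arrays limits the precision.

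The members, lists, motifs and rules were chosen with earlier results of these data known. Named were all measured members, up to 4 called genes per role and comparison by adjusted p (Plaa, Lpcat3, Ptger3, Alox5 and Tbxa2r were added after their values were seen), and the 5 genes nearest to Ptgs2, Pla2g4a and Ptges. Python 3.11.15, pandas 2.3.3 and matplotlib 3.10.9 were used. The levels and calls of the 8 members and the counts of calls were recomputed with a replicate block, without single arrays, from 2 groups only, with median centring or quantile normalization, without dim probe sets, with array weights, with a robust trend on intensity, with means of probe sets and from the authors' tables.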

Additional observations from a re-analysis of the deposited data

How the results depend on the processing

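The calls of Ptgs2, Pla2g4a and Ptges against LA, and of Ptgs2 between phenformin and CLA, kept their direction and passed the threshold in all 15 alternatives run for each. For the calls against LA the alternatives include the fit without LA replicate 3. The authors' tables, also among the alternatives, hold nearly the same fit to the same values, so they are no independent check. The log2 fold change of Ptgs2 in phenformin against CLA ranged from -3.13 to -2.72. Against LA its measured differences are from a level not above background and show no stable size, and the mean of its probe sets gave 5.38 in CLA and 2.65 in phenformin. The samples share replicate numbers, and the labels used here do not say whether the numbers pair them. Deviations of same-numbered arrays from their group means correlated between -0.29 and 0.58. Between CLA and phenformin they were 0.29, 0.09 and 0.58, while differently numbered arrays of these groups gave -0.53 to 0.39. With 3 arrays per group these values cannot settle whether arrays are paired. With the replicate number as a block, the other pathway genes called higher in phenformin against CLA numbered 1 and not 2 (Pla2g15 lost its call), and no member's call changed.

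Genes of the family called lower numbered 1 in CLA against LA and 2 in phenformin against LA after quantile normalization. With means of probe sets they numbered 0 in phenformin against LA and 2 in phenformin against CLA. Leaving out single arrays gave 0 to 1 in phenformin against LA. Other pathway genes called lower numbered 8 in CLA against LA and 6 in phenformin against LA after quantile normalization, 3 in phenformin against LA and 1 in phenformin against CLA with array weights, and 0 in phenformin against LA with means of probe sets. Single arrays left out gave 1 to 3 of them in phenformin against LA. Those called higher in phenformin against CLA numbered 6 with array weights, 4 with means of probe sets and 1 to 4 with single arrays left out. Array weights called 11273, 11123 and 4541 probe sets in CLA against LA, phenformin against LA and phenformin against CLA, where the fit used here called 7426, 7401 and 2048. Single arrays left out gave 4788 to 8313 probe sets in CLA against LA and 820 to 2426 in phenformin against CLA. The cause of these shifts was not tested.

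Directions turned in uncalled differences. After quantile normalization Hpgds was at 0.013 in phenformin against LA, Ptges2 at -0.019 and Ptgis at -0.057 in phenformin against CLA. With array weights Hpgds was at 0.013 in CLA and 0.059 in phenformin against LA, and Tbxas1 at 0.016 in phenformin against LA. With single arrays left out, Hpgds spanned -0.12 to 0.028, -0.085 to 0.072 and -0.020 to 0.075 in CLA against LA, phenformin against LA and phenformin against CLA, Tbxas1 -0.078 to 0.042 in phenformin against LA and Ptgis -0.015 to 0.087 in phenformin against CLA. Quantile normalization and median centring moved the median of all probe sets by under 0.1. Dropping dim probe sets removed Hpgds from the test and left 7 genes. The 3 arrays per group limit which small differences can be seen.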
